A study of Saccharomyces cerevisiae with 15 samples.

Results

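Yeast cells that expressed a Pdr1-Cyc8 fusion protein were compared with cells that carried an empty vector. The comparison used the 3 arrays titled for the fusion without the PDR1 deletion and the 3 titled for the empty vector, 6 of the 15 arrays of the series, and took every probe set except the array's own controls. The organism is the budding yeast Saccharomyces cerevisiae, and the arrays are Affymetrix YG-S98 arrays, with biotin-labelled cRNA from total RNA of 1 culture on each. The other 9 arrays held Pdr1-Cyc8 in cells without the endogenous PDR1 gene, a Pdr1-Sin3 fusion, and the PDR1 deletion alone, with 3 of each.

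In the 3 Pdr1-Cyc8 cultures the fusion was present beside the endogenous PDR1 gene, since the labels name a deletion only in other groups. The 3 empty vector cultures carried the vector and, by the same reading, PDR1 as well. Both groups grew logarithmically in synthetic dextrose medium. The strain, the promoter of the fusion, the parts of Pdr1 and Cyc8 it holds and the plasmid's selection marker are not stated in the labels. Replicates are called biological in the titles, so p-values rest on the spread between cultures of a group. That spread was pooled over all groups of the series, not taken from these groups alone.

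Pdr1 is a zinc cluster activator that binds short elements in the promoters of pleiotropic drug resistance (PDR) genes, which encode efflux pumps, lipid enzymes and some reductases. Cyc8, also called Ssn6, has no DNA binding of its own. It forms a corepressor with Tup1 that DNA-binding repressors bring to genes of glucose repression, flocculation, hypoxia, mating type and other programmes. A fusion of both puts the corepressor subunit on the DNA-binding protein of an activator, and the study asked whether such chimeras lower PDR genes in cells.

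Total signal on the 6 arrays was 6839487 to 7719747 and the median signal 115.7 to 138.9. Each array had 1096 to 1364 probe sets that read under 16, out of 9275 without the controls. The hybridisation control BioC exceeded BioB by 1.06 to 1.32 on the log2 scale on all 6, so the groups did not differ in their set of spike-ins. Levels below are log2(signal + 16) after quantile normalisation, and a difference is the mean with Pdr1-Cyc8 minus the mean with the empty vector on that scale, which understates the change of dim genes. A probe set was called where limma's adjusted p was under 0.05, and a gene was read from its brightest probe set. "Rose" and "fell" are kept for called genes. Precision is limited by the number of arrays.

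CYC8 was far higher in cells with the fusion. Its levels were 12.61, 12.13 and 12.05 with Pdr1-Cyc8, against 8.64, 8.75 and 8.68 with the empty vector. The groups lay far apart, and CYC8 rose by 3.58 (SE 0.27, limma adjusted p = 3.81e-06). PDR1, by contrast, had 9.17, 8.93 and 9.10 with Pdr1-Cyc8, against 9.04, 9.25 and 8.93 with the empty vector. The groups overlapped, with a difference of -0.01 (SE 0.227, limma adjusted p = 0.994). Which of the fusion and the endogenous gene each probe set reads is not stated in the labels. In cells without the endogenous PDR1 gene, the PDR1 probe set was higher with the fusion, as given below. TUP1, the partner of Cyc8, had a difference of -0.64 (limma adjusted p = 0.51), and SIN3, a subunit of another corepressor, 0.13 (adjusted p = 0.896). CYC8 was the 1 called member of 16 measured corepressor subunits, against 0.566 percent of all genes called higher.

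Of 9275 probe sets 66 were called (0.712 percent), 43 higher and 23 lower with Pdr1-Cyc8, and 909 had an unadjusted p under 0.05. Of the 66, 53 matched 1 gene, and 13 matched several genes or none and are counted but not named. By brightest probe set, 32 of 5656 genes were called higher (0.566 percent) and 13 lower (0.23 percent). The fusion and vector arrays of all 66 probe sets did not overlap. Differences were past 4-fold in 15 of the probe sets called higher and 6 of those called lower. In 6 of those called higher the empty vector mean was under a signal of 16, among them FLO1 and FMP33, and in 3 of those called lower the mean with Pdr1-Cyc8 was, so these sizes depend on the added 16. The number of calls depended on single arrays: it was 18 without Pdr1-Cyc8 replicate 1, 43 without its replicate 2, 22 without empty vector replicate 1 and 32 without its replicate 3. In a fit of only the 2 groups, which uses their spread alone, 10 probe sets were called. Of the 45 called genes, 14 kept their call when any 1 of the 6 arrays was left out (DET1, SHC1, HMS1, ISF1, HXT6, CYC7, FLO1, GSY1, YHR033W, MIG2, PGA3, PDR5, GRE2 and CYC8), the other 31 lost their call in at least 1 such fit, and 0 changed sign.

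**Figure D1:**
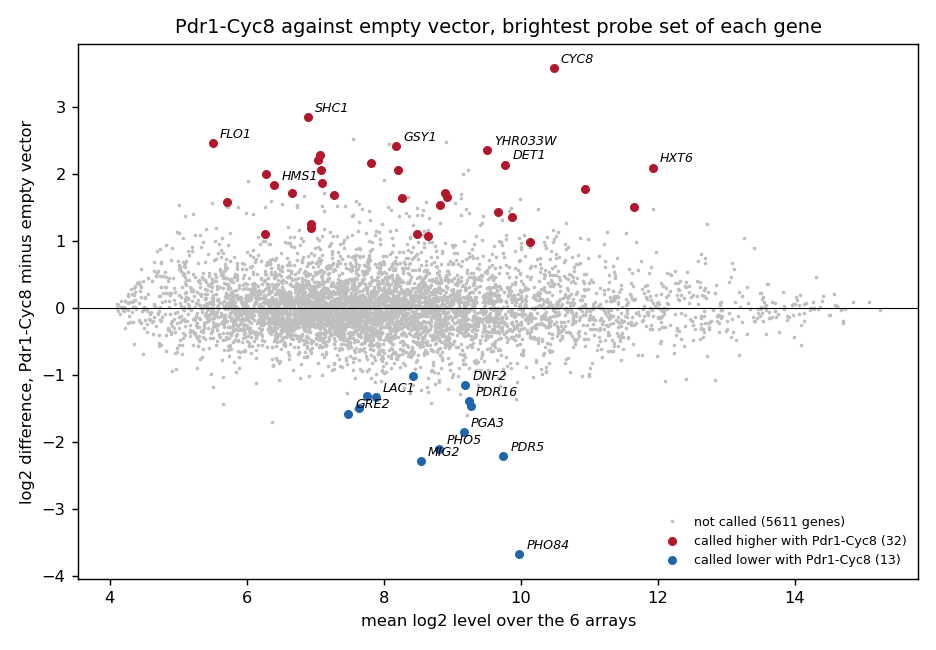
Log2 difference, Pdr1-Cyc8 minus empty vector, of each gene against its mean log2 level over the 6 arrays, with genes called higher in red, genes called lower in blue and the rest in grey. CYC8, at 3.58, and PHO84, at -3.67, lie at the upper and lower edge, and PDR5, at -2.21, lies among the lowest of the bright genes.

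The main drug pump gene PDR5, the reductase gene GRE2 and 3 lipid genes of the PDR network fell by 1.33 to 2.21 with the fusion. Of 26 listed PDR targets 24 were measured, 5 fell, none rose, and 20 had differences below 0. Over all 5656 genes 0.23 percent were called lower. The median difference of the PDR targets was -0.68, against -0.02 over all genes. Of the 24, 13 had all fusion arrays below all vector arrays, which held for 9.95 percent of all genes, and none had them all above, which held for 9.26 percent.

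Among the pumps, PDR5 stood out. PDR5 (YOR153W), the main drug efflux pump of the ABC family in the plasma membrane, had levels of 8.40, 8.95 and 8.55 with Pdr1-Cyc8, against 10.68, 11.14 and 10.71 with the empty vector. Every fusion culture was more than 1 log2 unit below every vector culture, and PDR5 fell by 2.21 (SE 0.326, limma adjusted p = 0.0044). The array carries 7 probe sets for PDR5, of which 5 were called lower. The other 2 were not, and the differences of the 7 ran from -2.22 to -0.01. The pump genes SNQ2 (-0.42, adjusted p = 0.634) and YOR1 (-0.70, adjusted p = 0.52) did not pass, and 0 of the 7 YOR1 probe sets were called, with differences from -1.01 to -0.03. YOR1 had 9.81, 8.83 and 9.43 with Pdr1-Cyc8, against 9.72, 10.16 and 10.30 with the empty vector, so the groups overlapped through 1 array of each. PDR10 (0.00) and PDR15 (0.29), which encode ABC proteins related to Pdr5, had overlapping groups. The polyamine exporter gene TPO1 had -0.41 with no overlap and an adjusted p of 0.797. PDR18, another ABC transporter gene, lay near the floor of the scale: its brightest probe set had 0.26, and 1 of 7 was called higher, by 1.31 (adjusted p = 0.0209), so its probe sets disagreed.

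The PDR genes of lipid metabolism were lower more evenly. Of 6 measured, 3 fell, 6 had differences below 0 and 5 had groups that did not overlap, with a median of -1.36. Over all genes 0.23 percent were called lower, and 9.95 percent had all fusion arrays below all vector arrays. PDR16, which encodes a phosphatidylinositol transfer protein, had 7.90, 8.93 and 8.79 with Pdr1-Cyc8, against 9.74, 10.08 and 9.96 with the empty vector. Replicate 1 of the fusion was the lowest, and the groups did not overlap. PDR16 fell by 1.39 (SE 0.256, limma adjusted p = 0.0188). SUR2, the hydroxylase that makes phytosphingosine, had 8.57, 8.34 and 8.71 with Pdr1-Cyc8, against 10.18, 9.85 and 9.96 with the empty vector, and fell by 1.46 (SE 0.24, adjusted p = 0.00871 by limma). LAC1, a ceramide synthase subunit, had 7.19, 7.05 and 7.41 with Pdr1-Cyc8, against 8.83, 8.40 and 8.40 with the empty vector, and fell by 1.33 (SE 0.227, adjusted p = 0.0121 by limma). In both genes each group was tight and the groups were apart.

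The other lipid genes of the list gave values that did not pass. ICT1, an acyltransferase of phospholipid synthesis, had 8.88, 8.48 and 7.91 with Pdr1-Cyc8, against 8.93, 10.34 and 10.76 with the empty vector (-1.59, limma adjusted p = 0.151). Its empty vector replicate 1 was close to the fusion arrays, and without that array the difference was -2.13 and was called (adjusted p = 0.0309). IPT1, an enzyme of complex sphingolipid synthesis, had -1.26 (adjusted p = 0.115), and RSB1, a transporter of sphingoid bases, -0.29 near the floor. Outside the list, DNF2, a plasma membrane phospholipid flippase, fell by 1.15 by its brightest probe set (adjusted p = 0.0319). All 9 DNF2 probe sets had differences below 0, from -1.73 to -0.32, and 4 were called lower. Of 23 measured sphingolipid genes not counted as PDR targets 0 were called by limma (2 with unadjusted p under 0.05), with a median of -0.09, and of 25 ergosterol genes also 0 (2 with unadjusted p under 0.05), with a median of -0.09.

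**Figure D2:**
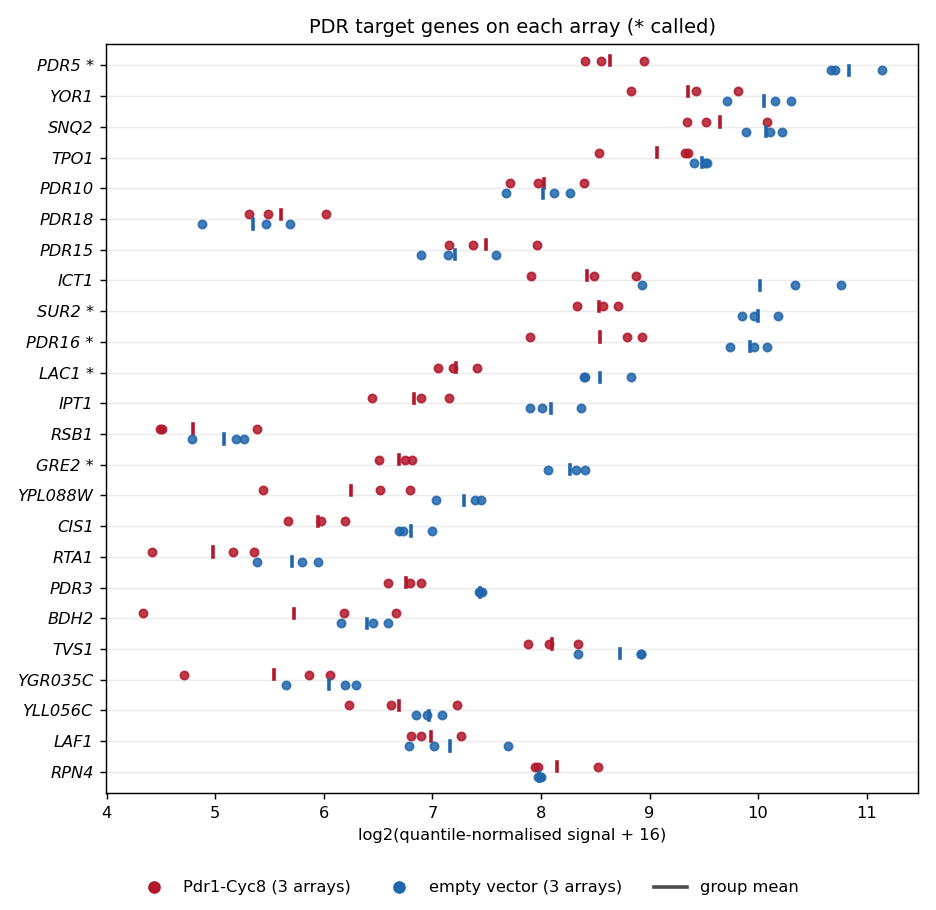
Log2 level of each measured PDR target on every array, with the 3 Pdr1-Cyc8 arrays (red) and the 3 empty vector arrays (blue) as points and the group mean as a bar. PDR5, GRE2, SUR2, LAC1 and PDR16, which fell by 1.33 to 2.21, have all fusion points below all vector points, while those of PDR10 and PDR15 mix.

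Of the 11 remaining PDR targets 1 fell, against 0.23 percent of all genes called lower. GRE2, an NADPH-dependent reductase, had 6.51, 6.75 and 6.81 with Pdr1-Cyc8, against 8.06, 8.41 and 8.32 with the empty vector, with every fusion array more than 1 log2 unit below every vector array. GRE2 fell by 1.58 (SE 0.198, limma adjusted p = 0.00106). PDR3, the paralogue of PDR1 that activates many of the same genes, had 6.89, 6.79 and 6.59 with Pdr1-Cyc8, against 7.43, 7.46 and 7.44 with the empty vector. The groups did not overlap, but the difference of -0.68 did not pass (SE 0.184, adjusted p = 0.157 by limma). YPL088W, a putative aryl alcohol dehydrogenase (-1.04), CIS1 (-0.86), RTA1 (-0.73) and TVS1 (-0.63) likewise did not overlap and did not pass, with adjusted p of 0.266, 0.351, 0.339 and 0.377. BDH2 (-0.67), YGR035C (-0.51), YLL056C (-0.27), LAF1 (-0.18) and RPN4 (0.16), the activator of proteasome genes, had overlapping groups. Of 9 PDR regulators, PDR3 among them, 0 were called by limma (2 with unadjusted p under 0.05).

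PDR5 and GRE2 were called in all 16 alternative settings. PDR16 lost its call without Pdr1-Cyc8 replicate 1 or any empty vector replicate, LAC1 without Pdr1-Cyc8 replicate 1 or 2 or empty vector replicate 1, and SUR2 without empty vector replicate 1. Their highest adjusted p when 1 array was left out was 0.0904, 0.0803 and 0.0564, and their differences then were -1.58 to -1.07, -1.42 to -1.19 and -1.55 to -1.36. A fit of only these 2 groups called PDR5 and GRE2 alone among PDR targets.

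Genes of carbon storage and of glucose uptake were among those that rose. Of 15 glycogen genes 4 rose, 14 had differences above 0 and 8 had all fusion arrays above all vector arrays, with a median of 0.75. Over all genes 0.566 percent were called higher and 9.26 percent had all fusion arrays above all vector arrays. GSY1, a glycogen synthase, had 9.21, 9.09 and 9.87 with Pdr1-Cyc8, against 6.56, 7.36 and 7.01 with the empty vector, and rose by 2.41 (SE 0.363, limma adjusted p = 0.00492). Its groups were well apart, and it kept its call in all 16 alternative settings. GDB1, the debranching enzyme, rose by 1.72 (adjusted p = 0.0172 by limma), GLC3, the branching enzyme, by 1.64 (adjusted p = 0.00871), and GSY2, the other synthase, by 1.43 (adjusted p = 0.0261). Enzymes of glycogen synthesis and of its breakdown were thus both among those that rose. GAC1, a phosphatase subunit that targets glycogen synthase (0.83), and PIG1 (0.79) had groups that did not overlap and were not called. GDB1, GLC3 and GSY2 each lost their call without Pdr1-Cyc8 replicate 1 or empty vector replicate 1 or 3, and GDB1 and GSY2 also without Pdr1-Cyc8 replicate 2, with adjusted p up to 0.111, 0.0679 and 0.156 and differences of at least 1.39, 1.46 and 1.26.

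Of 13 hexose transporter genes measured 2 rose, none fell, and the median was 0.00. Over all genes 0.566 percent were called higher. HXT6, a high-affinity glucose transporter, had 12.76, 12.86 and 13.29 with Pdr1-Cyc8, against 11.10, 11.37 and 10.16 with the empty vector, and rose by 2.09 (SE 0.307, limma adjusted p = 0.0044). HXT7 rose by 1.50 (adjusted p = 0.0261 by limma) and lost its call without any 1 array except empty vector replicate 2 (adjusted p up to 0.118), while HXT6 kept it. The coding sequences of HXT6 and HXT7 are nearly identical, so their probe sets may read both transcripts and the values are uncertain for each gene alone. HXT2 had 9.72, 10.01 and 10.70 with Pdr1-Cyc8, against 8.00, 8.22 and 6.80 with the empty vector; the difference of 2.47 just missed the threshold (SE 0.55, adjusted p = 0.0536). The low-affinity transporter genes HXT3 (-1.09, adjusted p = 0.155) and HXT1 (-0.61, adjusted p = 0.419), and HXT4 (-1.10, adjusted p = 0.305), had all fusion arrays below all vector arrays and were not called. That order of the arrays held for 9.95 percent of all genes.

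MIG2, a zinc finger repressor of glucose repression, moved the other way. It had 7.11, 7.21 and 7.88 with Pdr1-Cyc8, against 9.72, 10.24 and 9.07 with the empty vector, and fell by 2.28 (SE 0.315, limma adjusted p = 0.00259). MIG2 was the 1 called member of 12 repressors known to recruit Cyc8-Tup1, against 0.23 percent of all genes called lower. HXK1, the hexokinase made when glucose is scarce, had 11.60, 11.68 and 12.21 with Pdr1-Cyc8, against 9.51, 10.92 and 9.72 with the empty vector. It rose by 1.78 (adjusted p = 0.0345 by limma) and lost the call without any 1 array except empty vector replicate 2 (adjusted p up to 0.198). HXK2, the main glucose-phase hexokinase, had -0.67 (adjusted p = 0.66). Of 22 genes of gluconeogenesis and other glucose-repressed pathways 0 were called by limma, although 7 had an unadjusted p under 0.05, 18 were above 0 and the median was 0.43. POT1, a thiolase of fatty acid breakdown, came closest at 1.67 (adjusted p = 0.108).

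**Figure D3:**
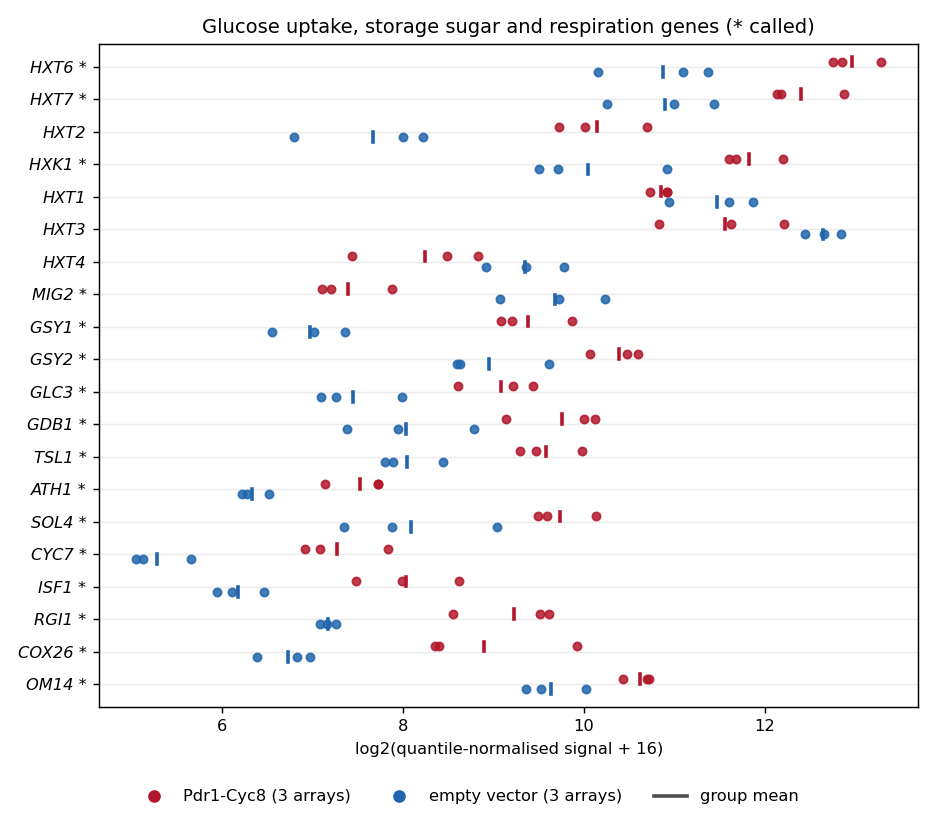
Log2 level of glucose uptake, storage sugar and respiration genes on every array, with the 3 Pdr1-Cyc8 arrays (red) and the 3 empty vector arrays (blue) as points and the group mean as a bar. GSY1, HXT6 and HXK1, which rose by 2.41, 2.09 and 1.78, have all fusion points above all vector points, and MIG2, which fell by 2.28, has them all below. The storage sugar and respiration genes shown were taken from the called genes, so their separation is no result about these classes. Of 15 glycogen genes 11 were not called, and of 30 stress and trehalose genes 26.

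Genes of the general stress response and of the storage sugar trehalose were among those that rose. Of 30 measured 4 rose, none fell, 27 were above 0, 15 had all fusion arrays above all vector arrays and 1 had them all below, with a median of 0.78. The shares over all genes were 0.566 percent called higher, 9.26 percent with all fusion arrays above and 9.95 percent with all below. TMA10, which encodes a ribosome-associated protein, rose by 2.06 (limma adjusted p = 0.0152). SOL4, a 6-phosphogluconolactonase, rose by 1.65 (adjusted p = 0.0319), TSL1, a subunit of the trehalose synthase complex, by 1.54 (adjusted p = 0.0209), and ATH1, the acid trehalase, by 1.19 (adjusted p = 0.0337). Each of the 4 lost its call without Pdr1-Cyc8 replicate 1 or empty vector replicate 1 or 3, with adjusted p up to 0.0916 for TMA10, 0.151 for SOL4, 0.117 for TSL1 and 0.191 for ATH1. TFS1, an inhibitor of carboxypeptidase Y, at 1.45 (adjusted p = 0.0528), and the chaperones HSP42 at 1.42 (adjusted p = 0.222) and HSP78 at 1.39 (adjusted p = 0.284) were not called, though their groups did not overlap. Averaged over the list, the stress genes lay 0.85, 1.04 and 0.41 above the empty vector mean on the Pdr1-Cyc8 arrays, and at -0.21, 0.27 and -0.06 on the empty vector arrays. Outside the lists, DCS1, a decapping scavenger enzyme, rose by 1.07 (adjusted p = 0.042), and SRX1, the sulfiredoxin that repairs oxidised peroxiredoxins, by 2.28 (adjusted p = 0.00871).

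CYC7, the cytochrome c isoform of low oxygen, had 6.91, 7.08 and 7.83 with Pdr1-Cyc8, against 5.06, 5.66 and 5.13 with the empty vector, and rose by 1.99 (SE 0.315, limma adjusted p = 0.00811). It was the 1 member called of 13 measured hypoxic genes, which had a median of 0.32, against 0.566 percent of all genes called higher. The genes named next were put together from the called genes by their known roles, with no list behind them. COX26, a protein of cytochrome c oxidase, rose by 2.17 (adjusted p = 0.0311), RGI1, required for respiratory growth, by 2.06 (adjusted p = 0.0285), and OM14, an outer membrane protein, by 0.98 (adjusted p = 0.0337). AIM17 and FMP33, whose products are found in mitochondria, rose by 2.21 (adjusted p = 0.0261) and 1.58 (adjusted p = 0.0319). ISF1 rose by 1.86 (adjusted p = 0.0044). CYC7 and ISF1 kept their calls whichever array was left out, and the others each lost it without at least 4 of the 6 arrays, with Pdr1-Cyc8 replicate 1 and empty vector replicate 1 among those 4 for each.

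Genes of the cell surface included the gene with the largest rise after CYC8, among probe sets that match 1 gene. Of the called probe sets that match several genes or none, some were higher by more, at 3.31 (limma adjusted p = 1.33e-06) and 2.88 (adjusted p = 0.00841). SHC1, an activator of chitin synthase in spore wall formation, had 8.68, 8.14 and 8.11 with Pdr1-Cyc8, against 5.74, 5.47 and 5.19 with the empty vector. The groups were more than 2 log2 units apart, and SHC1 rose by 2.84 (SE 0.242, limma adjusted p = 1.42e-05), which no alternative setting undid. The rest of the chitin and wall crosslinking list, 17 genes, was not called. FLO1, a flocculin that binds cells to each other, had 5.59, 7.21 and 7.38 with Pdr1-Cyc8, against 4.26, 4.24 and 4.30 with the empty vector. All vector arrays lay at the floor, 1 fusion array lay well below the other two, and FLO1 rose by 2.46 (SE 0.401, adjusted p = 0.00871 by limma). That value was 4.36 with a pseudocount of 1 and 1.24 with 64. FLO5 had 1.40 and was not called (adjusted p = 0.266), and flocculin sequences are alike, so their probe sets may share signal. YPS6, an aspartic protease of the cell surface, rose by 1.72 (adjusted p = 0.016).

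A phosphate transporter and an acid phosphatase gene also fell. Of 24 phosphate genes measured 2 fell, none rose, 18 were below 0 and the median was -0.16. Over all genes 0.23 percent were called lower, and 2981 of 5656 were below 0. PHO84, the high-affinity phosphate transporter, had 6.80, 9.39 and 8.23 with Pdr1-Cyc8, against 12.83, 10.23 and 12.37 with the empty vector. Cultures of both groups spread over more than 2 log2 units, with fusion replicate 2 and vector replicate 2 less than 1 unit apart. PHO84 fell by 3.67 (SE 0.716, limma adjusted p = 0.0261). PHO5, the repressible acid phosphatase, had 7.37, 8.02 and 7.89 with Pdr1-Cyc8, against 10.88, 8.57 and 10.12 with the empty vector, again with vector replicate 2 the closest, and fell by 2.10 (SE 0.435, adjusted p = 0.034 by limma). PHO84 lost its call without Pdr1-Cyc8 replicate 1 or 3 or empty vector replicate 1 or 3, and PHO5 without these or Pdr1-Cyc8 replicate 2, with adjusted p up to 0.156 and 0.193 and differences of -4.46 to -3.00 and -2.74 to -1.59. A fit of only the 2 groups, with their spread alone, called neither PHO84 nor PHO5. PHM6 (-1.42) and the polyphosphate polymerase genes VTC3 (-0.94) and VTC4 (-0.76) were not called.

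The other called genes have varied or unknown roles. DET1, which acts in sterol transport, had 10.97, 10.79 and 10.76 with Pdr1-Cyc8, against 8.70, 8.63 and 8.77 with the empty vector, with little spread in either group, and rose by 2.14 (SE 0.187, limma adjusted p = 1.54e-05). YHR033W, of unknown function, had 10.93, 10.38 and 10.75 with Pdr1-Cyc8, against 8.46, 8.31 and 8.22 with the empty vector, and rose by 2.35 (adjusted p = 2.76e-05 by limma). HMS1, a helix-loop-helix protein linked to pseudohyphal growth, rose by 1.84 (adjusted p = 0.000433). These 3 were called under every alternative. UGX2 (1.69), REE1 (1.36), YJL213W (1.26), UIP4 (1.10) and HER1 (1.10) rose with adjusted p of 0.0172 to 0.0485. PGA3, a putative cytochrome b5 reductase, fell by 1.85 (adjusted p = 0.00259), HMS2 by 1.49 (adjusted p = 0.0172), BUD21, a component of the small subunit processome, by 1.30 (adjusted p = 0.0383), and RSC8, a subunit of the RSC chromatin remodeller, by 1.01 (adjusted p = 0.0337). RSC8 and YJL213W lost their call whichever of the 6 arrays was left out, with limma adjusted p up to 0.14 and 0.27. HER1 lost its call in 5 of these 6 fits.

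Several lists had no called member, or few, but a median away from that of all genes (-0.02). All 60 ribosome assembly genes of the list had differences below 0, with a median of -0.73 and 24 with all fusion arrays below all vector arrays, against 9.95 percent of all genes. Limma called 0 of the 60, and 20 had an unadjusted p under 0.05, as did 649 of all 5656 genes in either direction. CIC1 was the lowest at -1.27 (adjusted p = 0.233). Averaged over the list, the Pdr1-Cyc8 arrays lay at -1.29, -0.49 and -0.48 and the empty vector arrays at 0.23, 0.09 and -0.32, so replicate 1 of the fusion was far lower than the other two. The a-specific mating genes had a median of 0.89 over 7 genes, with 0 called by limma and 6 with an unadjusted p under 0.05. AGA2, an agglutinin subunit, came closest at 1.48 (adjusted p = 0.0569). The 38 amino acid synthesis genes had a median of 0.42, with 0 called by limma and 2 with an unadjusted p under 0.05; their mean was 1.10, 0.46 and -0.01 on the Pdr1-Cyc8 arrays and -0.27, -0.19 and 0.45 on the empty vector arrays, which overlap. These shifts in growth and nutrient genes stand beside the stress, glycogen and phosphate results, and their part in those results was not tested.

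**Figure D4:**
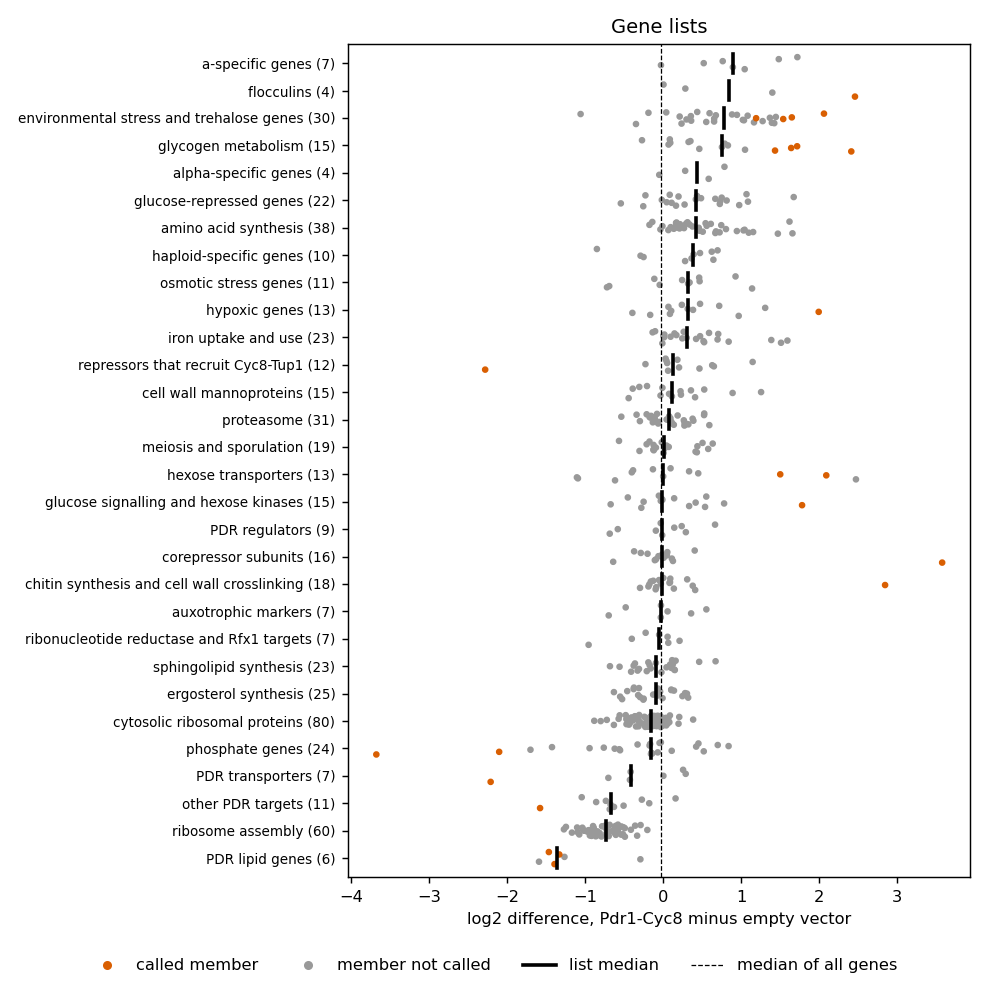
Median log2 difference, Pdr1-Cyc8 minus empty vector, of the gene lists, with each measured member as a point and called members coloured. The PDR lipid genes (median -1.36) and ribosome assembly genes (median -0.73) lie lowest, and the a-specific genes (0.89), stress genes (0.78) and glycogen genes (0.75) are among the highest.

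Of the auxotrophic marker genes, URA3 was near the floor in both groups, at 4.24, 4.38 and 4.12 with Pdr1-Cyc8, against 4.16, 4.40 and 4.26 with the empty vector. LEU2 had 12.55, 13.01 and 12.95 with Pdr1-Cyc8, against 13.41, 13.58 and 13.61 with the empty vector; the groups did not overlap, and the difference of -0.70 did not pass (limma adjusted p = 0.181). The labels do not say which marker the plasmids carry.

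The genes next to the called genes on the chromosomes, in the gene order of the reference annotation, were mostly not called. Of 81 measured neighbours 2 were called, HXT6 and HXT7, which neighbour each other, and the median difference of the 81 was 0.04. The neighbours of PDR5, ATG40 (0.03) and SLP1 (-0.36), and those of GRE2, FRE7 (0.42) and DCP1 (-0.39), were not called.

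The same fusion was also expressed in cells without PDR1, on arrays that share none with the 6 above. Those 3 arrays and the 3 of the deletion alone differ in their spike-in set, and the labels name no vector in the deletion, so set, vector and fusion cannot be told apart there. In that comparison 953 of 9275 probe sets were called higher (10.3 percent) and 807 lower (8.7 percent). Of the 43 probe sets called higher with the fusion beside PDR1, 34 had a difference above 0 in the deletion strains and 18 were called higher there. Of the 23 called lower, 18 had a difference below 0 and 15 were called lower.

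PDR5 had a difference of -1.24 in the deletion strains (SE 0.326, limma adjusted p = 0.0173), GRE2 -2.88, PDR16 -2.09, LAC1 -2.28 and SUR2 -0.71, all called lower. Over the 7 PDR5 probe sets the difference in the deletion strains ran from -2.75 to -0.31. The effect beside PDR1 minus that in the deletion strains ran from -0.97, in the brightest, to 0.66 over these 7. Its direction thus depended on the probe set, and the lowest limma adjusted p was 0.179. FLO1 (3.96), HXT6 (1.71), CYC7 (2.46), HMS1 (1.90), ISF1 (2.48), SHC1 (1.40) and YHR033W (1.47) were called higher there too, and MIG2 (-2.64) lower. GSY2 (-0.97) and HER1 (-1.20) were called lower there and RSC8 (1.15) higher, opposite to their direction beside PDR1. PDR1's own probe set was higher with the fusion in the deletion by 2.24 (SE 0.227, adjusted p = 1.97e-05 by limma). The difference between the 2 effects was called for 1067 of 9275 probe sets (11.5 percent) and 697 of 5656 genes (12.3 percent). Among the 24 PDR targets, 18 had a lower difference in the deletion strains than beside PDR1. The share over all genes was not counted. Over all 9275 probe sets, the effect beside PDR1 minus that in the deletion strains had a median of -0.02. Of the 697 genes called for that difference, 264 had the lower effect in the deletion strains and 433 the higher. SNQ2 (-2.84) and YOR1 (-3.75), not called beside PDR1, were called lower in the deletion strains.

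**Figure D5:**
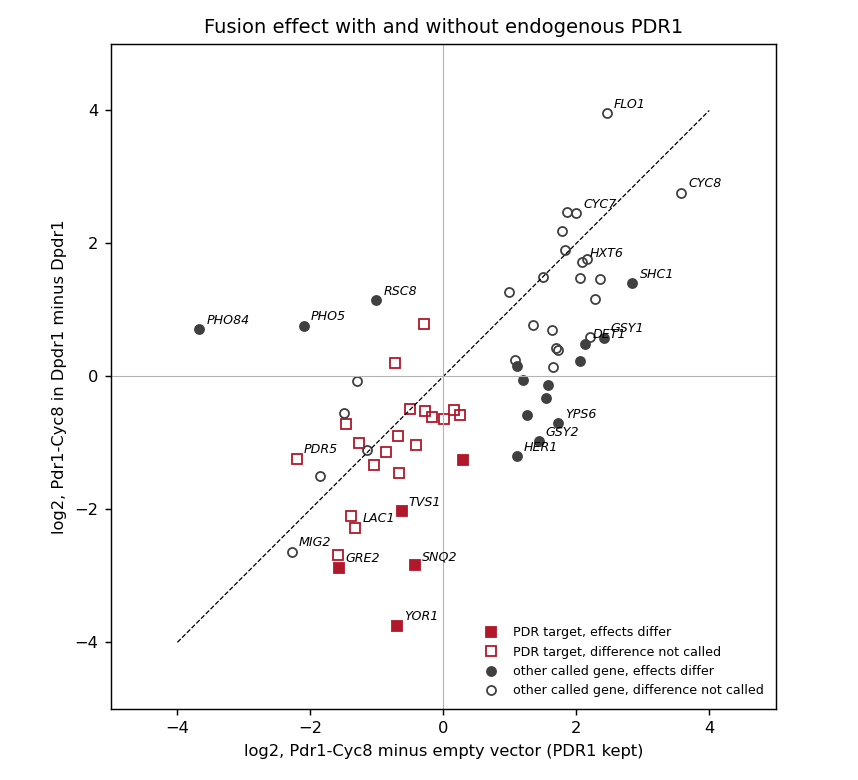
Log2 difference, Pdr1-Cyc8 minus empty vector (horizontal axis), against the fusion in cells without PDR1 minus the deletion alone (vertical axis), for called genes and PDR targets. On the vertical axis spike-in set, vector and fusion cannot be told apart. CYC8, FLO1 and HXT6 lie high on both axes, YOR1 and SNQ2 are low on the vertical axis alone, and GSY2 and HER1 lie above 0 on the horizontal and below 0 on the vertical axis.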

How the data were processed

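The deposited table holds linear microarray intensities, 1 value per probe set and array, that the authors had scaled: the trimmed mean was 500.5 to 500.7 on each of the 6 arrays. The summarising software, background correction and detection calls are not stated in the labels or the table. Arrays were grouped by their titles. Of 9335 probe sets, 60 controls were left out; in the platform annotation 6504 of the rest had 1 gene, 328 had several and 2443 had none, with symbols updated from RefSeq, and together they covered 5656 genes. A gene was read from its brightest probe set.

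Values of all 15 arrays were quantile normalised, and log2(value + 16) was taken. The groups were compared in R 4.3.3 with limma 3.58.1, in 1 fit to all 15 arrays with 10 residual and 5.35 prior degrees of freedom and Benjamini-Hochberg adjustment over 9275 probe sets; an adjusted p under 0.05 was called. The effect of the fusion in the deletion strains, and its difference from the effect beside PDR1, came from the same fit and were added after the data were seen.

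The members and the 30 gene lists (644 genes, 574 measured) were written from general knowledge of yeast with earlier results of these data known, so lists are described by counts and medians and were not tested. Named genes are all called genes, all PDR targets, CYC8, PDR1, TUP1 and SIN3, and up to 4 uncalled members of each other list whose groups did not overlap, those with the largest differences first; FRE7, DCP1, ATG40, SLP1 and URA3 were named outside this rule. Alternatives tried were array weights, a prior that follows intensity robustly, a pseudocount of 1 or 64, no normalisation beyond that of the deposited values, median centring, removal of the dimmest 25% of probe sets, fits of fewer arrays, a replicate block and leaving out each of the 6 arrays. The procedure was tested on simulated data. Neighbouring genes follow the RefSeq gene order of assembly R64. Python 3.11.15 with matplotlib 3.10.9 drew the figures.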

Additional observations from a re-analysis of the deposited data

Results flagged for a closer look

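The effect of the fusion in cells that keep PDR1 (Pdr1-Cyc8 minus empty vector) was compared with its effect in cells without PDR1 (Pdr1-Cyc8 in Dpdr1 minus Dpdr1) by an interaction term in the same limma fit, first effect minus second. Of 64 genes examined, the called genes and the PDR targets, 20 differed (adjusted p under 0.05), and 12 of the 20 differed in all 14 alternatives tried. These were the values as deposited, median centring and leaving out each of 12 arrays, chosen after seeing the data. Over all genes 12.3 percent differed, 264 genes with the higher effect beside PDR1 and 433 with the lower. The called genes were picked by the first effect, which is itself a term of this difference. That picking can raise their share and set its direction, so the 2 shares cannot be compared as a result about these genes. The arrays of Pdr1-Cyc8 in Dpdr1 are of another spike-in set than the other 9 arrays of the 4 groups, so a difference between effects and a difference between sets cannot be told apart.

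In the 5 PDR targets that differed, the effect beside PDR1 was the higher of the 2. YOR1 differed by 3.05 (SE 0.484, adjusted p = 0.0028), from effects of -0.70 and -3.75. SNQ2 differed by 2.42 (adjusted p = 0.00238), from -0.42 and -2.84. PDR15 differed by 1.55 (adjusted p = 0.0219), TVS1 by 1.40 (adjusted p = 0.0191) and GRE2 by 1.30 (adjusted p = 0.0123). YOR1, SNQ2 and GRE2 differed in all 14 alternatives, TVS1 in 12 and PDR15 in 11.

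Of 15 glycogen genes 3 differed and of 30 stress and trehalose genes 9, each with the higher effect beside PDR1, and the rest were not called. Those named here were picked among the genes called beside PDR1. GSY2 differed by 2.41 (SE 0.397, adjusted p = 0.00344), with effects of 1.43 and -0.97. TSL1 differed by 1.87 (adjusted p = 0.0128), GSY1 by 1.83 (adjusted p = 0.0336), TMA10 by 1.83 (adjusted p = 0.0342) and ATH1 by 1.25 (adjusted p = 0.0332). GSY2 and TSL1 differed in all 14 alternatives, and GSY1, TMA10 and ATH1 in 6 each. The called genes SOL4 (1.51, adjusted p = 0.0507), GDB1 (1.32, adjusted p = 0.0655) and GLC3 (0.95, adjusted p = 0.116) did not pass. Lists without a called gene differed too, against 12.3 percent of all genes. Of 60 ribosome assembly genes 31 differed, with the lower effect beside PDR1 (medians -0.73 beside PDR1, 1.04 without). Of 7 a-specific genes 6 (0.89, -1.17) and of 38 amino acid synthesis genes 13 (0.42, -0.84) had the higher effect beside PDR1. Of 11 osmotic stress genes 0 differed.

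Of 24 phosphate genes 7 differed, 6 with the lower effect beside PDR1 and 1 with the higher. The 2 named here are those called lower beside PDR1. PHO84 differed by -4.38 (SE 1.01, adjusted p = 0.0161), with effects of -3.67 and 0.71, and PHO5 by -2.86 (adjusted p = 0.0123), with effects of -2.10 and 0.76. RSC8 differed by -2.16 (adjusted p = 0.00107), called lower beside PDR1 and higher without it, though its call beside PDR1 was lost whichever of 6 arrays was left out. All 3 differed in all 14 alternatives.

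Of the other genes, YPS6 differed by 2.43 (adjusted p = 0.00516), HER1 by 2.30 (adjusted p = 0.00159), YJL213W by 1.83 (adjusted p = 0.0114), FMP33 by 1.72 (adjusted p = 0.0279), DET1 by 1.64 (adjusted p = 0.00293), SHC1 by 1.44 (adjusted p = 0.0183) and UIP4 by 0.95 (adjusted p = 0.0419). YPS6, HER1, YJL213W and DET1 differed in all 14 alternatives, SHC1 in 12, FMP33 in 8 and UIP4 in 4.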

How the results depend on the processing

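Of 66 called probe sets, the count was 36 with a pseudocount of 1, 109 with array weights, 10 in a fit of only the 2 groups, 19 in a fit of the 9 arrays of 1 spike-in set, and 18 to 59 when 1 array was left out; it was 54 to 73 in the other settings, which include the replicate block. The 5 PDR targets called lower became 2 with only the 2 groups, 3 with the 9 arrays and 3 to 5 when 1 array was left out. Of 45 called genes 8 were called in all 16 alternatives and 0 changed sign; of 98 uncalled named genes 13 were called in some alternative and 5 changed sign. These were PDR1 (0.071 as deposited), PDR10 (-0.0087 with median centring) and, when 1 array was left out, PDR1 (-0.082 to 0.077), PDR10 (-0.18 to 0.16), BDH2 (-1.14 to 0.023), LAF1 (-0.37 to 0.089) and RPN4 (-0.030 to 0.26). Of 480 list medians 13 moved past the spread between replicates: PDR transporters to -0.28 (array weights) and from -0.27 to -0.15 with 1 array left out, PDR lipid genes to -1.19, other PDR targets to -0.33 and glycogen genes to 0.48 with a pseudocount of 64, flocculins to 0.15 without dim probe sets, chitin genes to -0.07 with median centring and 0.06 with 1 array left out, recruiting repressors to -0.01 and 0.33 and glucose signalling genes to 0.12 and 0.15 with 1 array left out. The causes were not tested, except that fits of fewer arrays have fewer residual degrees of freedom. Deviations from the group mean had r = -0.35, -0.05 and -0.44 between same-numbered arrays of the groups, across brighter probe sets. Between arrays with other numbers r was -0.10 to 0.43. Deviations within a group are tied to each other, so these values cannot tell whether arrays were paired across groups, which was not tested. A replicate block gave 54 calls. The count of 20 genes that differ with and without PDR1 was 12 to 27 with 1 of 12 arrays left out. Signals near the floor limit what can be read for FLO1, PDR18 and RSB1.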

Other observations

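Some genes that missed the threshold by little had groups that did not overlap. TIR3, a cell wall mannoprotein of anaerobic growth, had levels of 9.89, 10.44 and 10.81 with Pdr1-Cyc8, against 9.38, 8.74 and 9.09 with the empty vector (difference 1.31, limma adjusted p = 0.0537). ENB1, a siderophore transporter, had 9.95, 10.18 and 9.31 with Pdr1-Cyc8, against 8.52, 8.66 and 8.11 with the empty vector (1.39, adjusted p = 0.0535). FIT2, a wall protein that retains siderophores, had 8.84, 10.06 and 7.54 with Pdr1-Cyc8, against 7.40, 7.11 and 7.41 with the empty vector (1.51, adjusted p = 0.211), with a wide spread among the fusion cultures. Of 23 measured iron genes 20 were above 0, as were 2675 of all 5656 genes, with a median of 0.30, and limma called 0 (4 with unadjusted p under 0.05). Averaged over the list, the Pdr1-Cyc8 arrays lay at 0.64, 0.86 and -0.16 and the empty vector arrays at -0.12, -0.09 and 0.21, which overlap.

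SNZ1, an enzyme of vitamin B6 synthesis, had 11.65, 10.34 and 10.40 with Pdr1-Cyc8, against 9.59, 9.30 and 8.63 with the empty vector (1.62, adjusted p = 0.0771). CIN5, a bZIP factor that recruits Cyc8-Tup1, had 7.57, 7.99 and 9.01 with Pdr1-Cyc8, against 7.16, 7.14 and 6.83 with the empty vector (1.15, adjusted p = 0.147). RNR1, the large subunit of ribonucleotide reductase, had -0.95 (adjusted p = 0.479), and limma called 0 of 7 genes of its list (1 with unadjusted p under 0.05). Of 80 measured cytosolic ribosomal protein genes 67 were below 0, as were 2981 of all 5656 genes, with a median of -0.15, and limma called 0 (6 with unadjusted p under 0.05). Their mean was -0.52, -0.14 and 0.08 on the Pdr1-Cyc8 arrays and 0.10, -0.05 and -0.05 on the empty vector arrays, which overlap. Of 31 proteasome genes limma called 0 (1 with unadjusted p under 0.05), with a median of 0.08, and of 19 genes of meiosis and sporulation also 0 (2 with unadjusted p under 0.05), with a median of 0.01.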
